A study of Mus musculus with 4 samples.

Results

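The proteasome genes were taken as the protein-coding genes whose symbol starts with Psma, Psmb, Psmc, Psmd, Psme or Psmg followed by a digit, together with Adrm1 and Pomp, which gave 51 of the 48709 genes counted. They were described by subcomplex in liver RNA of untreated C57BL/6 mice, sequenced as 4 libraries. The 2 WT libraries came from littermates with floxed Ddi2 but no Cre recombinase. The 2 DDI2-KO-labelled libraries came from Ddi2 flox/flox mice with Cre under the albumin promoter, which acts in hepatocytes. The study describes the deletion as liver-specific, and the state of the gene in the other cells of the liver was not measured here. Mice of both sexes, 6 to 12 weeks old, were used in the study, and the labels do not say which sex or age a library had. Of the 51 genes, 8 encode alpha subunits and 8 beta subunits of the 20S core, 3 immunoproteasome subunits, 6 ATPases, 4 non-ATPase subunits of the base, 8 of the lid, 5 activators and 8 assembly chaperones, among which Psmd5, Psmd9 and Psmd10 are counted although they carry the symbol of the non-ATPase subunits. The remaining gene, Psmc3ip, shares the prefix alone.

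The proteasome is the main protease of the cytosol and nucleus and degrades proteins marked with ubiquitin. Its 20S core is a barrel in which outer rings of alpha subunits gate access to inner rings of beta subunits, 3 of which cleave peptide bonds. The 19S particle docks on the core, with a base of ATPases that unfold substrates and a lid that removes ubiquitin, and dedicated chaperones that do not stay in the finished particle build both. DDI2 is a protease that cleaves the transcription factor NRF1, which switches on proteasome genes when proteasome activity falls. The comparison of untreated livers therefore addresses the expression of proteasome genes with and without hepatocyte DDI2, in the absence of an inhibitor.

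Reads counted on genes numbered 34109018 and 31532247 in WT and 25582344 and 22501208 in the DDI2-KO-labelled libraries, so depth differed by genotype. Beside them, ambiguous reads amounted to 2.5% and 2.54% in WT and to 3.49% and 3.66% in the DDI2-KO-labelled libraries. Reads on no gene amounted to 5.11% and 4.7% against 2.53% and 3.65%. The part of this in the differences below was not tested. A detection limit of 3 reads was at most 0.133 CPM, the unit of scaled read counts used here. Ddi2 itself was read at 141 and 123 CPM in WT and at 157 and 164 CPM in the DDI2-KO-labelled libraries (log2 fold change 0.28, standard error 0.17, adjusted p = 0.349). Here and below, adjusted p-values come from the quasi-likelihood test of edgeR, corrected by Benjamini-Hochberg over all genes tested, unless another tool is named. The count over the whole gene was thus not lower where the label says that the gene was deleted. Such a count may not register the loss of a small part of a gene, so it does not check the labels, and every direction below is between libraries as labelled. Liver identity was checked with hepatocyte markers, of which Alb lay between 122000 and 155000 CPM in all 4 libraries. All 8 leukocyte markers had a log2 fold change below 0, where 48.7% of all genes lay above 0, and none passed the test. Their summed level was 299 and 279 CPM in WT and 244 and 170 CPM in the DDI2-KO-labelled libraries. Most of this sum came from Cd74, H2-Aa and H2-Ab1, so it says little about the other markers. Cd74 alone was read at 162 and 141 CPM in WT and at 118 and 80.5 CPM in the DDI2-KO-labelled libraries. For Ptprc the values were 20.3 and 18.3 CPM against 13.5 and 15.4 CPM. In bulk RNA, fewer cells of a type and less RNA per cell cannot be told apart.

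In the 49 proteasome genes that could be tested, 2 passed the threshold of an adjusted p under 0.05, against 2.53% of the 13699 genes tested. Both were higher in the DDI2-KO-labelled libraries, a direction called for 1.33% of all genes, and 0 were lower, against 1.2%. They were Psmb4, a non-catalytic beta subunit, and Psme2, a subunit of the PA28 activator. At an unadjusted p under 0.05 there were 12 of 49, where the share of all genes was 23.5%. The 2 genes left out were Psmb11, the thymus beta subunit, with 0 reads in every library, and Psmc3ip, with 12, 11, 5 and 6 reads. The median log2 fold change over the 49 genes was 0.14, with 29 above 0 and 20 below. Over all genes tested the median was -0.01, with 48.7% above 0. Scaled levels of the groups did not overlap for 35 genes, against 55.7% of all genes, of which 22 were higher and 13 lower in the DDI2-KO-labelled libraries. Over all genes tested, these shares were 28% and 27.7%. The number past the threshold depended on the method. It was 4 with DESeq2, where 6.86% of all genes passed, 4 with a replicate block (8.09%) and 4 with GC and length offsets (4.74%). Without a low-count filter it was 5 (7.32%). With limma-voom (0.993%) and limma-trend (1.01%) it was 0.

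**Figure D1:**
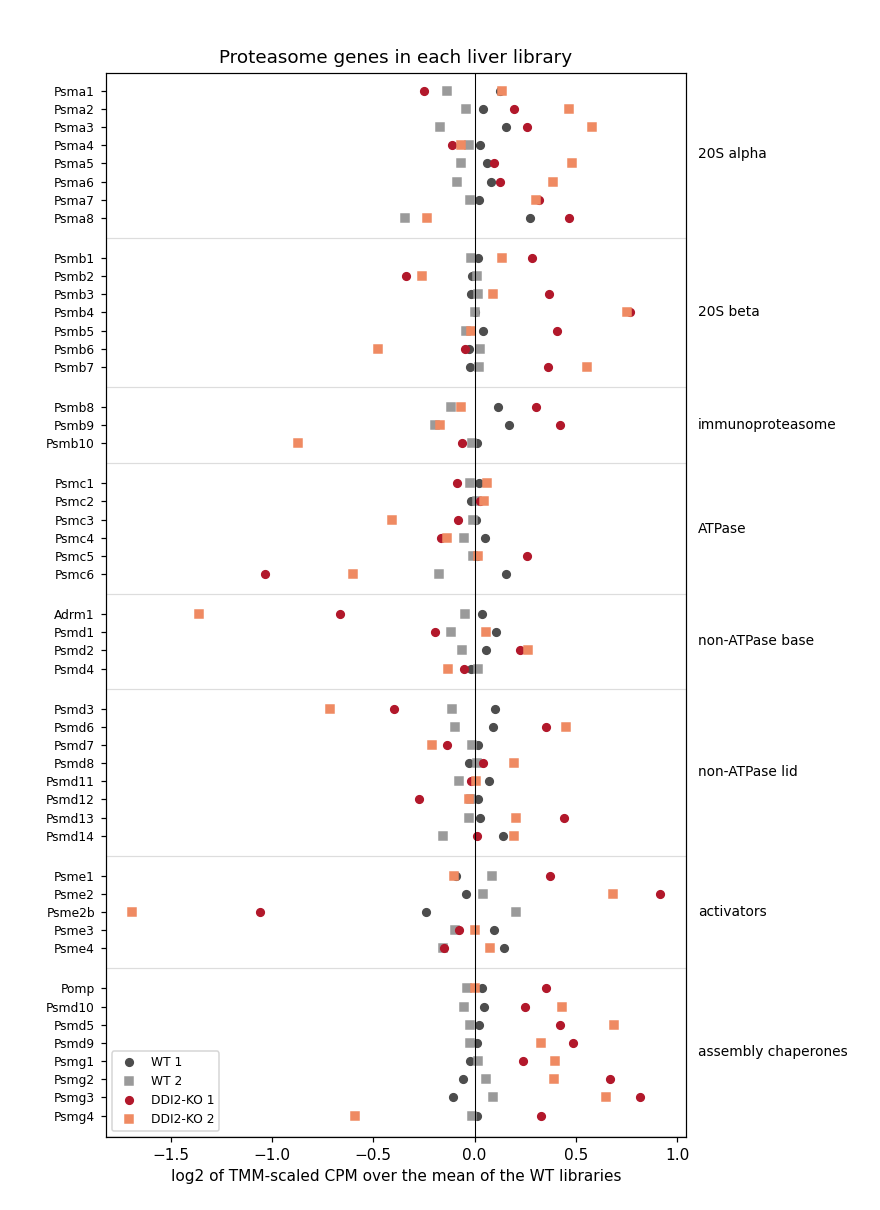
Level of each of the 49 tested proteasome genes in each library, grouped by subcomplex, as the log2 of its scaled CPM over the mean of the WT libraries. Grey symbols are WT and red symbols the DDI2-KO-labelled libraries, with a circle for replicate 1 and a square for replicate 2. Both red symbols lie right of both grey symbols for 22 genes and left of them for 13.

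The medians of the subcomplexes are given as a description. Core subunits and assembly chaperones had medians above 0, at 0.24 over the 15 alpha and beta subunits tested and 0.38 over the 8 chaperones. For the 18 ATPase and non-ATPase subunits of the 19S particle the median was -0.04, with 7 above 0 and 11 below. Summed over its members, the chaperone group stood at 165 and 161 CPM in WT and at 214 and 203 CPM in the DDI2-KO-labelled libraries. For the ATPases the sums were 487 and 459 CPM in WT and 421 and 422 CPM in the DDI2-KO-labelled libraries. The WT and DDI2-KO sums did not overlap for the beta subunits, the ATPases, the activators or the chaperones. They overlapped for the alpha subunits, the immunoproteasome, the base and the lid. Single genes weighed in these sums. From WT to the DDI2-KO-labelled libraries, mean CPM went from 59.4 to 100 for Psmb4 and from 463 to 531 for all beta subunits. For Psmc6 it went from 84.0 to 48.3, and for all ATPases from 473 to 422. For Psme2 it went from 35.2 to 61.4, and for all activators from 258 to 287, with a median log2 fold change of -0.03. No background share was computed for such sums. Beyond the counts above, no subcomplex was tested as a group.

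**Figure D2:**
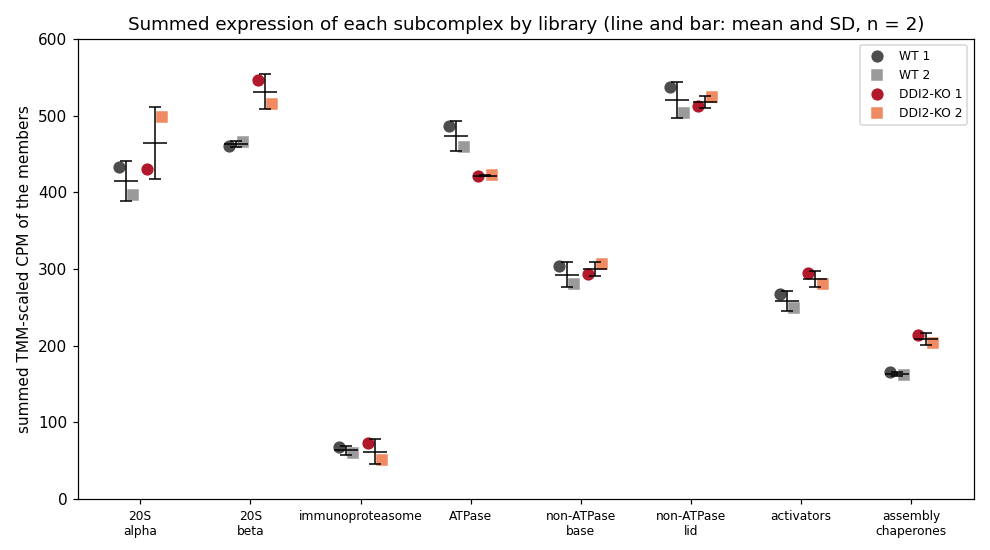
Summed scaled CPM of the members of each subcomplex, with 1 symbol per library and the mean and SD of each genotype (n = 2) as a line and bar. The chaperone sums of the DDI2-KO-labelled libraries, 214 and 203 CPM, lie above the WT sums of 165 and 161 CPM, and the ATPase sums lie below theirs.

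Among the alpha subunits, which form the gate of the core, 6 of the 8 had a log2 fold change above 0 and 0 passed the test. Groups did not overlap for 5 that were higher and for 1 that was lower, beside 28% and 27.7% of all genes. The highest value was that of Psma3, at 0.43 (standard error 0.20, edgeR adjusted p = 0.243). It was read at 14.8 and 11.8 CPM in WT and at 15.9 and 19.9 CPM in the DDI2-KO-labelled libraries, where the lower DDI2-KO library lay close above the higher WT library. Psma4 had the lowest value, at -0.09, with 97.6 and 94 CPM against 88.7 and 91.5 CPM. Scaled by transcript length, the levels of the alpha genes in WT ran from 82.2 CPM per kilobase for Psma4 down to 0.363 CPM per kilobase for Psma8, the testis form of a core subunit, which had 25, 15, 22 and 12 reads.

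Psmb4 (ENSMUSG00000005779, GRCm38 chr3:94884093-94886961, minus strand) was the beta subunit with the clearest difference. Its reads numbered 1999 and 1836 in WT and 2612 and 2300 in the DDI2-KO-labelled libraries. Scaled, this was 59.5 and 59.4 CPM against 101 and 100 CPM, so that the replicates of each genotype were nearly level and the genotypes far apart. The fold change was 1.69 (log2 0.76, standard error 0.15, edgeR adjusted p = 0.0472). No stretch of 50 bases of its main transcript occurs in another annotated gene. With offsets for GC content and length the log2 fold change was 0.60 (edgeR adjusted p = 0.0492). The call lay near the threshold. With all libraries kept, the call also held with DESeq2, RLE factors, library totals, a replicate block and no low-count filter. It was lost with upper-quartile factors, limma-voom, limma-trend, a mean of at least 1 CPM and no robust estimation. It was lost on leaving out WT replicate 1 (edgeR adjusted p = 0.226), WT replicate 2 (0.183) or DDI2-KO replicate 1 (0.0553) and held without DDI2-KO replicate 2 (0.0427), while the log2 fold change stayed between 0.76 and 0.77.

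Of the 3 catalytic beta subunits, none passed the test. Psmb7, which carries the trypsin-like site, was read at 81.8 and 84.3 CPM in WT and at 107 and 122 CPM in the DDI2-KO-labelled libraries (log2 fold change 0.47, standard error 0.16, edgeR adjusted p = 0.140). The groups did not overlap, but the difference did not pass the test. Psmb5, with the chymotrypsin-like site, stood at 18.6 and 17.6 CPM in WT and at 24.0 and 17.9 CPM in the DDI2-KO-labelled libraries, where DDI2-KO replicate 2 fell between the WT values. Its log2 fold change was 0.21 and turned to -0.0098 without DDI2-KO replicate 1. Psmb6, with the caspase-like site, had the highest level per length of all 49 genes in WT (116 CPM per kilobase) and stood at 90.8 and 94.3 CPM in WT against 89.6 and 66.6 CPM, both below WT (log2 fold change -0.24, edgeR adjusted p = 0.471). The lowest log2 fold change of the beta subunits was -0.30 for Psmb2, a structural subunit, at 78.8 and 80.0 CPM in WT and 62.8 and 66.3 CPM in the DDI2-KO-labelled libraries, with no overlap and an edgeR adjusted p of 0.275.

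**Figure D3:**
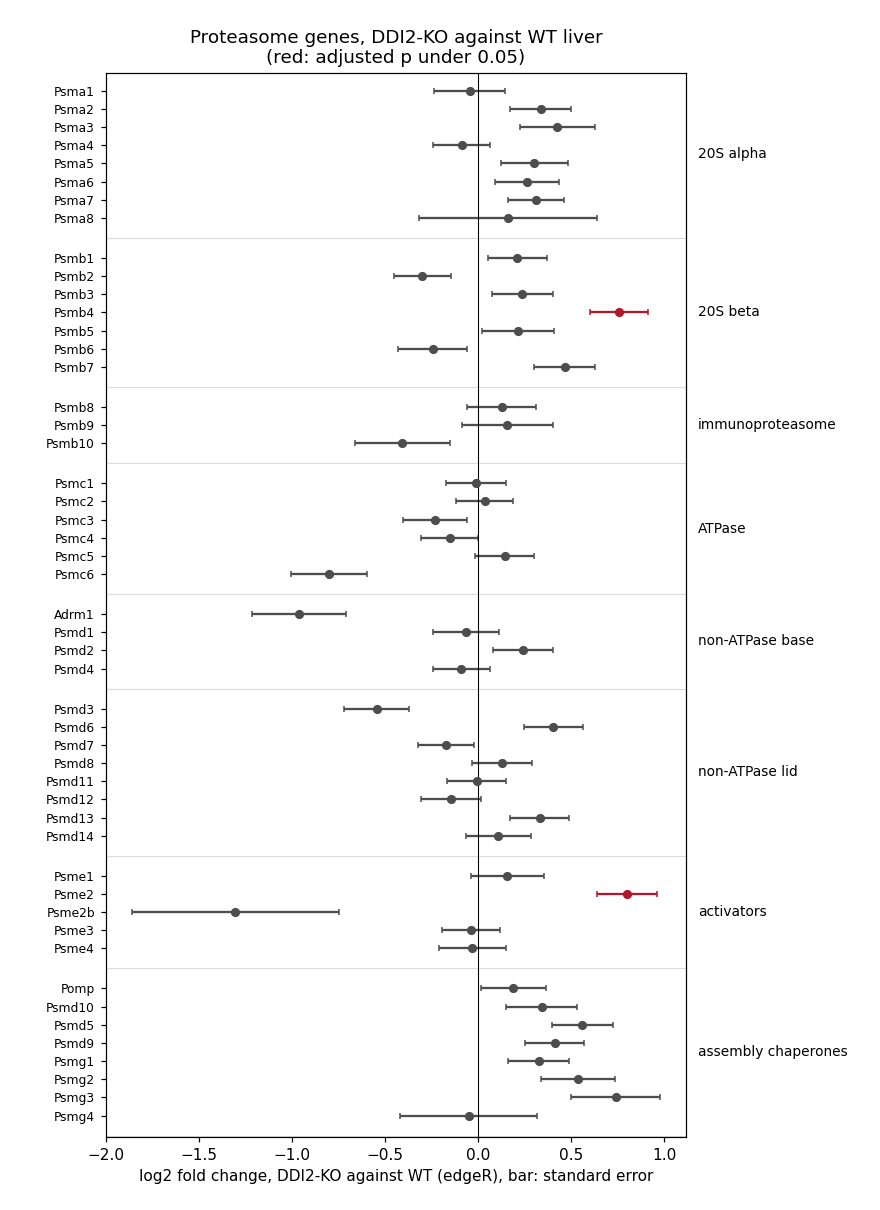
Log2 fold change of each tested proteasome gene between the DDI2-KO-labelled libraries and WT, with its standard error as a bar, from edgeR. Psmb4 and Psme2, in red, are the genes with an adjusted p under 0.05, and Psme2b, at the far left, rests on 4 to 20 reads per library.

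The immunoproteasome subunits replace the catalytic ones when interferon signalling is active, and they supply peptides for antigen presentation. None of the 3 passed the test. Psmb8, the counterpart of Psmb5, was read at 30.3 and 25.8 CPM in WT and at 34.5 and 26.7 CPM in the DDI2-KO-labelled libraries. Psmb9, the counterpart of Psmb6, stood at 14.3 and 11.1 CPM against 17.0 and 11.3 CPM, so both genes overlapped between genotypes. Psmb10, the counterpart of Psmb7, was level at 23.1 and 22.7 CPM in WT and lower in DDI2-KO replicate 2 (12.5 CPM) than in DDI2-KO replicate 1 (21.9 CPM). With a log2 fold change of -0.41 and a standard error of 0.26, its edgeR adjusted p was 0.376.

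Taken per length within each library, Psmb10 amounted to 25% and 23.8% of Psmb7 in WT and to 18.1% and 9.08% in the DDI2-KO-labelled libraries. Both DDI2-KO ratios lay below the WT ratios, with Psmb10 below 0 and Psmb7 above 0 in log2 fold change. For Psmb9 to Psmb6 the ratios were 9.30% and 6.92% in WT and 11.2% and 9.99% in the DDI2-KO-labelled libraries, again with no overlap but in the other direction. Psmb8 amounted to 89.8% and 81.0% of Psmb5 in WT and to 79.3% and 82.2% in the DDI2-KO-labelled libraries, which overlapped. By a two-sided exact permutation test of the log2 ratio over libraries, p was 0.333 for Psmb10 and for Psmb9 and 0.667 for Psmb8 (0.5, 0.5 and 0.667 after Benjamini-Hochberg adjustment over the 3 ratios). With 2 libraries against 2, the smallest p this test allows is 0.333. Psmb9 overlaps exons of Tap1 on the other strand over 5.79% of its exon bases. Psmb5 overlaps Mir686 on the same strand over 12.1% of its exon bases. Of the stretches of 50 bases of Psmb5, 57.1% occur in other genes, most of all in the pseudogene Gm3375. The count of Gm3375 was 29 and 25 in WT and 1 and 25 in the DDI2-KO-labelled libraries. No such stretch of Psmb8 occurs in another gene. Ambiguous reads and reads aligned to more than 1 place are not in the counts, so Psmb5 may be undercounted and the ratio of Psmb8 to Psmb5 too high. The size of this was not tested.

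**Figure D4:**
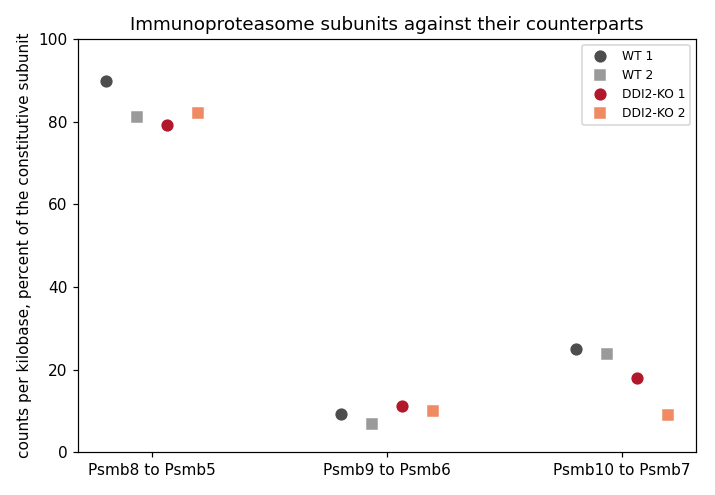
Level per kilobase of each immunoproteasome subunit as a percent of its constitutive counterpart, with 1 symbol per library. Psmb10 to Psmb7 is lower in both DDI2-KO-labelled libraries (18.1% and 9.08%) than in WT (25% and 23.8%), and Psmb9 to Psmb6 is higher in both.

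The ATPases form the ring that unfolds substrates and threads them into the core. One of them, Psmc6 (ENSMUSG00000021832, GRCm38 chr14:45329788-45349705, plus strand), had a lower log2 fold change than the other 5. Reads numbered 3148 and 2298 for WT, against 1061 and 1276 for the DDI2-KO-labelled libraries, or 93.6 and 74.4 CPM against 41.0 and 55.5 CPM. Replicates differed in both genotypes, but the groups did not overlap. The fold change was 0.574 (log2 -0.80, standard error 0.20), with an edgeR adjusted p of 0.0732, and it did not pass. Over 15 alternatives the adjusted p ran from 0.00375 in edgeR without a filter on low counts to 0.334 in edgeR without WT replicate 1, and it was under 0.05 in 4 of them, among them edgeR without DDI2-KO replicate 2 (0.0401). With offsets for GC content and length the log2 fold change was -0.49 (edgeR adjusted p = 0.0714). The log2 fold changes of the other ATPases lay between -0.23 for Psmc3 and 0.14 for Psmc5, and no ATPase passed the test. Per length, Psmc6 stood at 41.9 and 33.3 CPM per kilobase in WT and at 18.3 and 24.9 CPM per kilobase in the DDI2-KO-labelled libraries. It was the lowest ATPase in both DDI2-KO-labelled libraries and also in WT replicate 2, where Psmc5 was next at 33.9 CPM per kilobase. Psmc6 has the lowest GC content of the proteasome genes tested, at 37.0%.

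Of the base subunits outside the ring, Adrm1 (ENSMUSG00000039041, GRCm38 chr2:180171485-180176286, plus strand), which encodes a ubiquitin receptor, had the lowest log2 fold change. Its reads were 424 and 368 in WT and 201 and 110 in the DDI2-KO-labelled libraries, or 12.6 and 11.9 CPM against 7.77 and 4.79 CPM. Both DDI2-KO-labelled libraries lay below WT, and they differed from each other by more than the WT libraries did. The log2 fold change was -0.96 (standard error 0.25, edgeR adjusted p = 0.0780), short of the threshold. Over 15 alternatives the adjusted p ran from 0.00474 in edgeR without a filter on low counts to 0.269 in edgeR without WT replicate 1, and it was under 0.05 in 5 of them, among them edgeR without DDI2-KO replicate 1 (0.0371). Adrm1 has the highest GC content of the 49 genes (60.3%), and 78% of the stretches of 50 bases of its main transcript also occur in other genes, most of all in Gm9774, which was itself counted at 6 and 16 reads for WT, against 2 and 12 for the DDI2-KO-labelled libraries. With offsets for GC content and length its log2 fold change was -0.83 (edgeR adjusted p = 0.0431). The part of the shared stretches in the difference was not tested. Psmd2, a scaffold that binds ubiquitin-like shuttles, had the highest value of the base, at 0.24 (125 and 115 CPM in WT, 140 and 144 CPM in the DDI2-KO-labelled libraries).

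The lid was split evenly, with 4 genes above 0 and 4 below and a median of 0.05, which turned to -0.070 with offsets for GC and length. Psmd3, a structural subunit, was read at 73.9 and 63.7 CPM in WT and at 52.2 and 42.0 CPM in the DDI2-KO-labelled libraries (log2 fold change -0.55, standard error 0.17, edgeR adjusted p = 0.118). Psmd6, another structural subunit, ran the other way, from 38.4 and 33.8 CPM to 46.1 and 49.4 CPM (log2 fold change 0.40, edgeR adjusted p = 0.177). Neither gene overlapped between genotypes and neither passed the test.

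Among the activators, which open the core in place of the 19S particle, Psme2 (ENSMUSG00000079197, GRCm38 chr14:55587441-55591113, minus strand) passed the test. WT libraries held 1151 and 1119 reads of it, and 1718 and 1298 were found in the DDI2-KO-labelled libraries, or 34.2 and 36.2 CPM against 66.4 and 56.5 CPM. Both DDI2-KO-labelled libraries lay well above WT (fold change 1.74, log2 0.80, standard error 0.16, edgeR adjusted p = 0.0467). With offsets for GC content and length the log2 fold change was 0.65 (edgeR adjusted p = 0.0357). With all libraries kept, the call held and was lost in the same settings as that of Psmb4. The call was lost without WT replicate 1 (edgeR adjusted p = 0.234), WT replicate 2 (0.156) or DDI2-KO replicate 1 (0.0579) and held without DDI2-KO replicate 2 (0.0249). Psme1, its partner in the PA28 ring and its neighbour on chromosome 14, was read at 59.7 and 67.4 CPM in WT and at 82.4 and 59.3 CPM in the DDI2-KO-labelled libraries, which overlapped (log2 fold change 0.16). In Psme2, 59.3% of the stretches of 50 bases occur in other genes, most of all in Psme2b, a single-exon gene on chromosome 11, and 69.3% of those of Psme2b occur elsewhere, most of all in Psme2. For Psme2b, WT libraries held 16 and 20 reads, against 7 and 4 in the DDI2-KO-labelled libraries, and its log2 fold change of -1.30 (standard error 0.56) did not pass the test. A read from a shared stretch cannot be assigned to either gene, and the reads of Psme2b are few beside those of Psme2.

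The assembly chaperones were the group with the highest median, at 0.38. Without Psmd5, Psmd9 and Psmd10, a setting chosen after seeing the data, it was 0.32, beside 0.28 for the alpha subunits. All 3 of these genes were above 0 and higher without overlap. Of all 8 chaperones, 7 had a log2 fold change above 0, beside 48.7% of all genes. For 6 the DDI2-KO-labelled libraries were higher without overlap, beside 28% of all genes. At an adjusted p under 0.05 in edgeR 0 passed, and at an unadjusted p under 0.05 there were 4, beside 23.5% of all genes. Psmg3, which helps to start the alpha ring, had the highest value at 0.74 (standard error 0.24, edgeR adjusted p = 0.120), on 99 and 104 reads for WT, against 144 and 114 for the DDI2-KO-labelled libraries, or 2.94 and 3.37 CPM against 5.56 and 4.96 CPM. Of the stretches of 50 bases of Psmg3, 22.7% occur in other genes, most of all in Gm26938, which had 0 reads in every library. Gm26938 also overlaps it on the same strand over 9.68% of its exon bases. The part of this in the difference was not tested. Psmg4, the dimer partner of Psmg3, overlapped between genotypes, at 2.05 and 2.01 CPM in WT and 2.55 and 1.35 CPM in the DDI2-KO-labelled libraries. Pomp, which acts in core assembly, was by far the most abundant chaperone per length (41.4 CPM per kilobase in WT). It stood at 67.0 and 63.8 CPM in WT against 83.4 and 65.6 CPM in the DDI2-KO-labelled libraries, with overlap.

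The other 5 chaperones were chosen for description after their values had been seen. Psmg1 and Psmg2 form the second dimer that starts the alpha ring. Psmg1 stood at 17.6 and 18.1 CPM in WT and 21.1 and 23.6 CPM in the DDI2-KO-labelled libraries, and Psmg2 at 7.91 and 8.58 CPM against 13.1 and 10.8 CPM. The remaining 3 escort the ATPases of the base. Psmd5 was read at 36.3 and 35.3 CPM in WT and at 47.9 and 57.7 CPM in the DDI2-KO-labelled libraries (log2 fold change 0.56, standard error 0.16, edgeR adjusted p = 0.0972). Psmd9 stood at 21.4 and 20.9 CPM against 29.7 and 26.6 CPM, and Psmd10 at 9.73 and 9.09 CPM against 11.2 and 12.7 CPM. In all 5 of these genes, which are among the 6 counted above, both DDI2-KO-labelled libraries exceeded both WT values, as for 28% of all genes. None of them passed the test.

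Differences between replicates of a genotype were related to base composition in the proteasome genes. Between DDI2-KO replicate 2 and DDI2-KO replicate 1, the log2 ratio of a gene fell with the GC content of its main transcript (Spearman's rho of -0.70 over the 49 genes, -0.49 over all genes). Between the WT libraries rho was 0.37 over the 49 genes and 0.07 over all. Between genotypes it was -0.18 over the 49 genes and 0.05 over all. These are descriptions across genes of the same libraries, and genes are not independent replicates. Adrm1 and Psmb10, at 60.3% and 56.5% GC, were among the genes that were lower in DDI2-KO replicate 2 than in DDI2-KO replicate 1, and Psmc6, at 37.0%, was higher there. For Psmb4, at 52.2% GC, the DDI2-KO replicates were level.

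**Figure D5:**
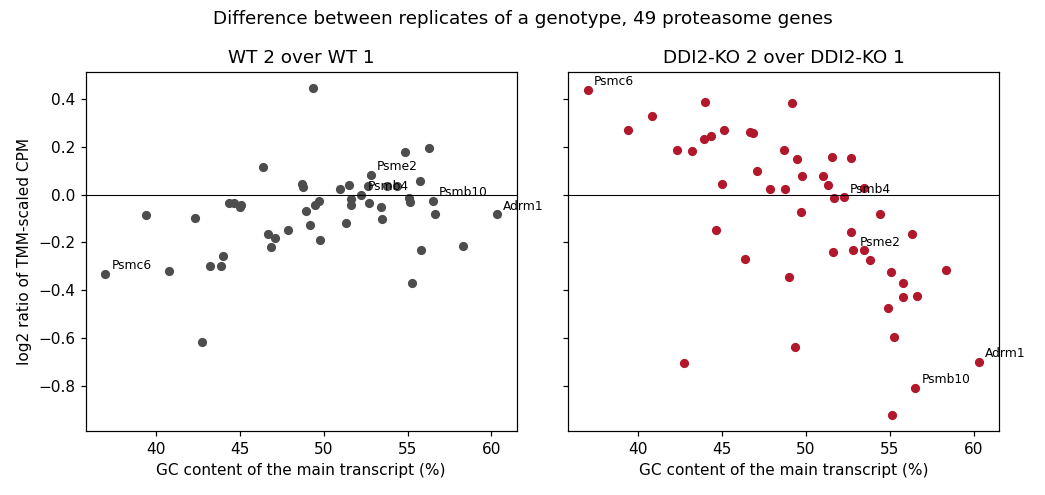
Log2 ratio of scaled CPM between replicates of each genotype (WT left, DDI2-KO-labelled libraries right) against the GC content of the main transcript, with 1 point per proteasome gene tested. In the right panel the ratio falls with GC content (rho -0.70), from Psmc6 at the top left to Adrm1 and Psmb10 at the bottom right, and Psmb4 lies at 0.

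NRF1 binds antioxidant response elements, so the RefSeq promoter windows of GRCm38.p6, 250 bases before to 50 after each annotated start, were searched for the core of this element. A window was found for 43 of the 51 genes. The letters searched were TGACNNNGC on both strands, and they occurred in 7 of the 43 genes (16.3%), compared with 14% of all genes with a window, a share near the background. The genes were Psmb5, Psmb6, Psmc6, Adrm1, Psmd12, Psmd9 and Psme4. The log2 fold change was below 0 for Adrm1 (-0.96), Psmc6 (-0.80), Psmb6 (-0.24), Psmd12 (-0.14) and Psme4 (-0.03). It was above 0 for Psmb5 (0.21) and Psmd9 (0.41). The median over the 7 was -0.14. For the 34 tested genes with a window and no match it was 0.16, with 23 above 0. A match describes letters in a window and was not tested as a binding site. The relation of a match to the fold change was not tested. The stretches around the match before the start follow for the members described so far and for Psmd12, 5′ to 3′ in the sense of the gene, with the matched letters in capitals. They lie outside annotated genes, except for 9 bases of the Psmb5 stretch in its first exon and for the Psmd9 stretch, which lies inside a longer model of that gene.
Adrm1 (chr2:180171406-180171454, plus strand): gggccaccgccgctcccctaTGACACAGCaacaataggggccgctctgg
Psmc6 (chr14:45329577-45329625, plus strand): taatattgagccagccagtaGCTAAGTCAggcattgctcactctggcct
Psmb5 (chr14:54618014-54618062, minus strand): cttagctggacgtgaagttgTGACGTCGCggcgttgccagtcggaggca
Psmb6 (chr11:70525328-70525356, plus strand): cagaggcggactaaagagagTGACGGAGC
Psmd12 (chr11:107479278-107479309, plus strand): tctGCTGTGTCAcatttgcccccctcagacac
Psmd9 (chr5:123228139-123228187, plus strand): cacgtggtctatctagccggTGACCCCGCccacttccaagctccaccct

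Positions were counted from the RefSeq start, with the base before it as -1. The match stands at -9 to -1 in Psmb6, -31 to -23 in Psmd9 and -47 to -39 in Psmb5. It stands farther off in Adrm1 (-162 to -154), Psmc6 (-227 to -219) and Psmd12 (-247 to -239). These distances depend on the annotation. GENCODE starts Adrm1 upstream of the RefSeq start, at chr2:180171485, which is nearer to the match. In Psmc6 and Psmd12 the match is on the opposite strand. The CCAAT box, searched as these letters on both strands, occurred in 16 of the 43 genes (37.2%) and in 41.1% of all genes. Of the 7 alpha subunits with a window, 5 held it. The core of the interferon-regulated element, searched on both strands as GAAA repeated after a gap of 2 bases of any kind, occurred in 5 of the 43 genes (11.6%; Psmb3, Psmd4, Psmd9, Psme1 and Psmg4) and in 3.99% of all genes. They were in none of the 3 immunoproteasome windows.

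Other genes of the same pathways were taken from lists made by function. Of 15 further proteasome factors, among them shuttles, deubiquitinases and the lid subunit Sem1, 0 passed the test, with 8 above 0 and 7 below and a median of 0.03. Akirin2, which carries proteasomes into the nucleus, came nearest and was chosen after its values were seen, with 11 and 12.5 CPM in WT and 20.3 and 21.3 CPM in the DDI2-KO-labelled libraries (log2 fold change 0.82, standard error 0.17, edgeR adjusted p = 0.0502). For 14 genes of the NRF1 pathway, 0 passed, with 6 above 0, 8 below and a median of -0.07. For 12 antigen processing genes, 0 passed, with 5 above 0, 7 below and a median of -0.17. Beside the immunoproteasome values, the 8 leukocyte markers had a median of -0.48 and the 6 Kupffer cell markers one of 0.27, and the part of cell types in them was not tested. Of the other marker lists, 1 of 5 endothelial genes passed the test (Stab2, log2 fold change -1.10, edgeR adjusted p = 0.0288) and 0 of 6 hepatocyte, 0 of 4 stellate and 0 of 5 cholangiocyte genes did, with medians of 0.04, -0.22, -0.50 and 0.32 in that order.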

How the data were processed

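Liver RNA of untreated mice was sequenced from stranded mRNA libraries. The authors deposited raw counts of reads per Ensembl gene, made per the labels' processing notes with cutadapt 1.8, STAR 2.5.2b and HTSeq 0.6.1 on GRCm38, with the annotation release not given in the sources used here. The 5 summary lines of each file were not used as genes, and reads aligned to more than 1 place (47.3% to 65.8% of the reads on genes) are not in the counts. GENCODE M21 holds 48349 of the 48709 gene identifiers.

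Counts were scaled by TMM and tested with edgeR 4.0.16 in R 4.3.3 (filterByExpr, glmQLFit with robust estimation, glmQLFTest), with Benjamini-Hochberg adjustment over all genes kept. A standard error is the log2 fold change over the square root of F. The study used limma's moderated test, run here as limma-voom and limma-trend (limma 3.58.1, prior count 2). DESeq2 1.42.0, RLE, upper-quartile and library-total scaling, no filter or a minimum mean of 1 CPM, fits with a replicate block or without robust estimation, offsets for length and GC content (lowess span 0.3) and leaving out each library were further alternatives. The script was tested on simulated data.

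The members and lists were chosen with earlier results of these data known. Named genes are those past the threshold, the highest and lowest of each subcomplex, subunits the study assayed, the immunoproteasome subunits with their counterparts, Pomp, Adrm1 and Ddi2. Levels per kilobase use the length of the main protein-coding transcript. Sampling noise did not account for the differences between replicates (chi-square over its degrees of freedom 64.7 in WT and 34.7 in DDI2-KO), and each library, described by the study as a biological replicate, was counted as 1 sample. Limits of 3 counts cover counting error alone.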

Additional observations from a re-analysis of the deposited data

How the results depend on the processing

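Both the 2 libraries per genotype and, for members with few reads such as Psme2b (4 to 20 per library), the depth limited the precision. Of the 49 proteasome genes, 2 passed the test. The number was 0 with upper-quartile factors, limma-voom, limma-trend, a mean of at least 1 CPM and no robust estimation, 4 with DESeq2, the replicate block and the length and GC offsets, 5 without the filter on low counts, and 0 to 3 when 1 library was left out. Among members with under 10% of their stretches in other genes, chosen after seeing the data, it was 1. The numbers of the replicates are shared by label alone (correlation of their deviations 0.0588 over 13699 genes). The cause of these changes was not tested.

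The median log2 fold change of the members moved from 0.14 to 0.090 with upper-quartile factors, which set the median of all genes to -0.07, to 0.19 with library totals and to 0.045 with the offsets. With the offsets the alpha subunits stood at 0.14, the ATPases at -0.24, the base at -0.19, the lid at -0.070 and the chaperones at 0.32. The chaperones stood at 0.32 with upper-quartile factors and at 0.42 with library totals.

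Leaving out each library, medians ran from 0.052 to 0.22 over the members, 0.17 to 0.36 (alpha), 0.10 to 0.38 (beta), -0.17 to 0.31 (immunoproteasome), -0.12 to -0.04 (ATPases), -0.12 to -0.03 (base), -0.056 to 0.10 (lid), -0.13 to 0.074 (activators) and 0.37 to 0.41 (chaperones). The log2 difference of ratios ran from -0.15 to -0.01 for Psmb8 to Psmb5, 0.19 to 0.61 for Psmb9 to Psmb6 and -1.42 to -0.43 for Psmb10 to Psmb7. Psmc5 turned to -0.027 with the offsets. Without 1 library, Psmb5 ran from -0.0098 to 0.42, Psmb8 from -0.068 to 0.31, Psmb9 from -0.17 to 0.43 and Psmg4 from -0.58 to 0.34.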
